A study of Mus musculus with 4 samples.

Results

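Toll-like receptors are sensors of the innate immune system. They bind molecules of microbes or of damaged tissue and pass the signal on through adaptor proteins that dock to the receptor's inner part, the TIR domain. MyD88 serves most of these receptors and leads to NF-kappaB, TRIF serves TLR3 and TLR4 and leads to interferon genes, and TLR4 needs the co-receptor MD-2 on its surface to recognise its ligand. TLR4 has been implicated in the neuropathy caused by paclitaxel, a chemotherapy drug that stabilises microtubules. Described here are 10 genes of 48431 in the table, chosen by symbol: the surface receptors Tlr2, Tlr4 and Tlr5, the endosomal receptors Tlr3, Tlr7 and Tlr9, the TLR4 co-receptors Cd14 and Ly96, and the adaptors Myd88 and Ticam1. Ly96 encodes MD-2 and Ticam1 encodes TRIF. Each symbol occurred once.

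The data were 4 ribosome footprint libraries, replicates 1 to 4, from dorsal root ganglia (DRG), the clusters of sensory neuron cell bodies beside the spinal cord, of female wild-type SW mice. All mice had received 4 intraperitoneal doses of 4 mg/kg paclitaxel, one every second day. Neither the age of the mice nor pooling of animals is stated in the labels, which do not say whether the libraries came from separate animals, so every SD and p measures only the spread between these libraries. Untreated mice and RNA libraries were not analysed here, so no value below is an effect of paclitaxel or a translational efficiency. Values are in CPM, the reads of a gene out of 1000000 assigned ones, at depths of 5731491 to 14633434 assigned reads. The totals differed in content: the mitochondrial ribosomal RNA gene mt-Rnr2 held 23520, 61455, 0 and 52082 CPM in replicates 1 to 4. In bulk tissue, fewer cells of a type and less RNA per cell cannot be told apart. All 8 pan-neuronal marker genes were detected and summed to 12735 ± 970 CPM (SD, n = 4).

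A ribosome footprint is about as long as the stretches shown next, and the libraries were cut to 28 to 34 nt. They are the first 30 coding bases of Tlr4 and its co-receptor Ly96, of the adaptors Myd88 and Ticam1, and of Tlr3, the receptor with the highest level. The sequences come from GENCODE M21 transcripts on GRCm38, 5′ to 3′ on the gene's own strand, with the start codon in capitals. The table holds 1 number per gene, so where reads lay along these sequences was not examined.
Tlr4, chr4:66827832-66827861, plus strand: ATGatgcctccctggctcctggctaggact
Ly96, chr1:16688508-16688537, plus strand: ATGttgccatttattctcttttcgacgctg
Myd88, chr9:119339930-119339959, minus strand: ATGtctgcgggagacccccgcgtgggatcc
Ticam1, chr17:56272064-56272093, minus strand: ATGgataacccagggccttcgctccgtggt
Tlr3, chr8:45403112-45403141, minus strand: ATGaaagggtgttcctcttatctaatgtac

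The coding sequences of 9 of the 10 genes were unique: none of their 30-nt words recurred, on either strand, in a transcript that GENCODE assigns to a different gene. Myd88 was the exception, with 77.3% of its words unique. Its coding bases 61 to 284, a run of 224 nt in 1 exon (chromosome 9, 119339676 to 119339899), lie opposite the first exon of Acaa1a, a peroxisomal thiolase gene on the other strand. The last word of that run, which faces the annotated start of Acaa1a, is shown because reads from either gene would match it.
Myd88, coding bases 255 to 284, chr9:119339676-119339705, minus strand: tgtcggcaggctgctagagctgctggcctt
Whether reads were counted by strand is not given in the sources used here, so reads of Acaa1a could be among those of Myd88. Acaa1a stood at 22.0, 17.0, 21.4 and 22.2 CPM in replicates 1 to 4. Of the exons of Tlr3, 381 of 5207 nt lie opposite the antisense gene Gm45542, outside the coding words that were tested, and reads there could likewise not be told apart.

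All 10 genes were detected, meaning at least 1 CPM in each of the 4 libraries. By the same rule 62.5% of all protein-coding genes were detected, and 30.4% of all genes. The counts behind the values were small. A gene had between 26 reads (Tlr2 in replicate 2 and Ly96 in replicate 1) and 178 reads (Tlr3 in replicate 3) in a library, and the 10 genes summed to 77.6 ± 7.002 CPM (SD, n = 4).

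Tlr4 (ENSMUSG00000039005.13, chromosome 4, 66827584 to 66930284, plus strand), the receptor for bacterial lipopolysaccharide, had 6.98, 7.78, 8.34 and 9.02 CPM in replicates 1 to 4. These values rest on 40, 72, 122 and 94 reads, and the 95% Wilson interval of the lowest, 5.13 to 9.50 CPM, includes all the others. The interval of the highest, 7.37 to 11.03 CPM in replicate 4, leaves out the replicate 1 value. The mean was 8.03 ± 0.863 CPM (SD, n = 4). Tlr2 (ENSMUSG00000027995.10, chromosome 3, 83836272 to 83841767, minus strand), the receptor for bacterial lipoproteins, had 6.28, 2.81, 4.85 and 5.47 CPM. Replicate 2 was the low library for Tlr2, with 26 reads and an interval of 1.92 to 4.12 CPM. Tlr5 (ENSMUSG00000079164.8, chromosome 1, 182954788 to 182976044, plus strand), the flagellin receptor, had 7.33, 6.48, 6.22 and 7.10 CPM and was thus nearly level across the libraries.

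Of the endosomal receptors, Tlr3 (ENSMUSG00000031639.12, chromosome 8, 45395665 to 45411080, minus strand), which senses double-stranded RNA, had 15.2, 13.8, 12.2 and 11.03 CPM. In CPM and also per kilobase of coding sequence, each Tlr3 value was above every Tlr2, Tlr4, Tlr5 and Tlr7 value in any library. Tlr9 (ENSMUSG00000045322.10, chromosome 9, 106222598 to 106226883, plus strand), the sensor of unmethylated CpG DNA, had 11.9, 7.89, 9.70 and 6.62 CPM, with replicate 1 highest and replicate 4 lowest. Tlr7 (ENSMUSG00000044583.13, chromosome X, 167304929 to 167330558, minus strand), which senses single-stranded RNA, had 7.68, 4.54, 8.06 and 7.10 CPM, with replicate 2 lowest, as for Tlr2.

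The co-receptor gene Cd14 (ENSMUSG00000051439.6, chromosome 18, 36725067 to 36726798, minus strand), whose product hands lipopolysaccharide to TLR4, had 12.2, 9.51, 10.3 and 9.98 CPM. Ly96 (ENSMUSG00000025779.10, chromosome 1, 16688051 to 16709611, plus strand) had 4.54, 3.89, 4.37 and 5.28 CPM, the lowest mean of the 10 genes. Its coding sequence, at 480 nt, was also the shortest, so this order does not carry over to the level per length. The adaptor genes stood close to each other in CPM. Myd88 (ENSMUSG00000032508.8, chromosome 9, 119335934 to 119341411, minus strand) had 7.33, 6.16, 7.72 and 5.76 CPM, and Ticam1 (ENSMUSG00000047123.8, chromosome 17, 56269319 to 56276786, minus strand) had 7.33, 7.78, 7.24 and 6.52 CPM.

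**Figure D1:**
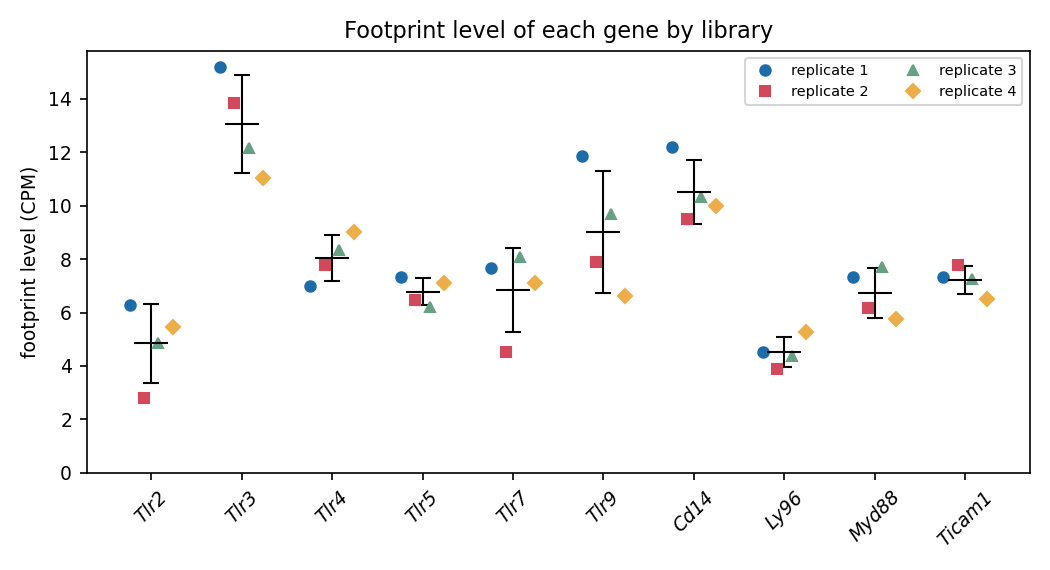
Footprint level in CPM (y axis) of each gene (x axis) in replicates 1 to 4, with the mean as a horizontal bar and the SD as whiskers (n = 4). Tlr3 had the highest mean, 13.1 CPM, and Ly96 the lowest, 4.52 CPM. Replicate 2 was the low library for Tlr2 and Tlr7.

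Longer coding sequences hold more ribosomes, so levels of different genes were compared per kilobase (kb) of coding sequence, taking the longest one annotated for each gene. On this scale the co-receptors and Myd88 stood above the receptors. They also have the shortest coding sequences of the genes described, at 480 nt for Ly96, 888 nt for Myd88 and 1098 nt for Cd14. In CPM, Ly96 had the lowest mean, and the Myd88 level may include reads of Acaa1a. Cd14 averaged 9.57 ± 1.08, Ly96 9.41 ± 1.20 and Myd88 7.59 ± 1.05 CPM per kb (SD, n = 4). Tlr3 followed at 4.81 ± 0.673 CPM per kb. Ticam1 was at 3.29 ± 0.237, Tlr4 at 3.20 ± 0.345, Tlr9 at 2.91 ± 0.737, Tlr5 at 2.59 ± 0.198, Tlr7 at 2.17 ± 0.504 and Tlr2 at 2.06 ± 0.630 CPM per kb. In all 4 libraries Cd14, Ly96 and Myd88 held the first 3 places and Tlr3 the fourth.

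Neighbours in this order were compared within each library as differences of log2((CPM + 1) per kb). The neighbours were set by the means of these same libraries, so their directions were not chosen beforehand. Of 9 neighbour pairs, 3 were ordered the same way in 4 of 4 libraries. Ly96 was above Myd88 by 0.40 ± 0.26, Myd88 above Tlr3 by 0.75 ± 0.20 and Tlr3 above Ticam1 by 0.46 ± 0.13 on the log2 scale (SD, n = 4). The other 6 did not differ beyond the spread of the libraries: Cd14 and Ly96, Ticam1 and Tlr4, Tlr4 and Tlr9, Tlr9 and Tlr5, Tlr5 and Tlr7, and Tlr7 and Tlr2. With 4 libraries the smallest p of an exact 2-sided sign-flip permutation test is 0.13, so no single difference could pass 0.05. Cd14 had the higher mean CPM per kb than Ly96, but with 1 CPM added before the logarithm the sign turned, to −0.13 ± 0.19 for Cd14 minus Ly96.

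**Figure D2:**
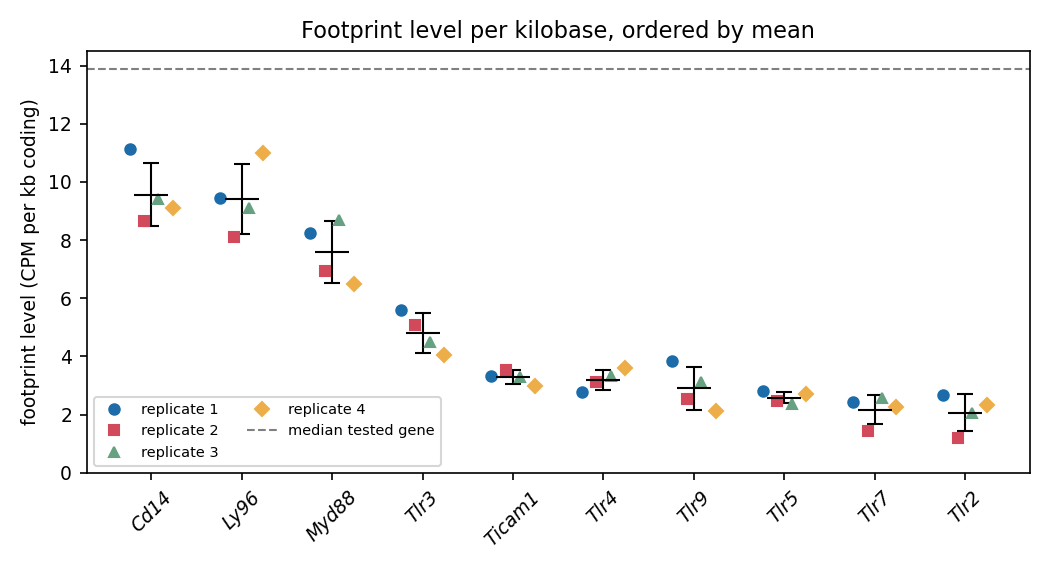
Footprint level in CPM per kilobase of coding sequence (y axis) in replicates 1 to 4, with the genes ordered by their mean (x axis), mean and SD as bars and whiskers (n = 4). The dashed line is the median tested gene at 13.9 CPM per kb, which lies above every point. Cd14, Ly96 and Myd88, which have the shortest coding sequences, stand apart from the other 7 genes.

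Each gene was then set against the median tested gene of the same library, which stood at 13.9 ± 0.779 CPM per kb (SD over the 4 libraries), in a limma fit on 14128 genes. All 10 genes were lower than the median gene at a limma adjusted p under 0.05. This was true of 46.2% of all genes tested, with 45.9% called higher, so such a call is common at this replicate spread. The size of the gap differed among the genes. The 10 genes had a median of −2.005 on the log2 scale, while the median over all tested genes was 0.00.

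Tlr4 lay −2.03 ± 0.18 from the median gene (limma adjusted p = 4.5e-08), a 4.09-fold lower level once 1 CPM was added to each value. In CPM per kb it was above 17.2% of the genes tested. Tlr2 and Tlr7 were lowest, at −2.60 ± 0.37 (limma adjusted p = 1.4e-07) and −2.59 ± 0.27 (limma adjusted p = 3.6e-08). Ly96 was the closest to the median gene at −0.36 ± 0.17 (limma adjusted p = 0.0036), followed by Cd14 at −0.49 ± 0.11 and Myd88 at −0.76 ± 0.10. The other 4 genes, Tlr3, Ticam1, Tlr9 and Tlr5, lay between −1.52 and −2.31. The order depends on the scale: with a pseudocount of 0.1 CPM Cd14 and Ly96 were level at −0.54 each, and without the length correction Ly96 was the furthest of the 10 at −1.90 and Tlr3 the closest at −0.56. The calls depend on which genes enter the median. When every gene with a read was included the median gene fell by 0.79 on the log2 scale. Ly96 and Cd14 were then called above it (limma adjusted p = 0.00097 and 0.0042).

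The parts of the lipopolysaccharide receptor were unequal. Per kilobase, Ly96 was above Tlr4 by 1.67 ± 0.14 on the log2(CPM + 1) scale and higher in 4 of 4 libraries, with an exact permutation p of 0.13. As a ratio of CPM per kb, Ly96 over Tlr4 was 3.39, 2.61, 2.74 and 3.05 in replicates 1 to 4. Cd14 was above Tlr4 by 1.54 ± 0.26, again in 4 of 4 libraries, with ratios of 3.99, 2.79, 2.82 and 2.52. These directions rest on the correction for length. In CPM, Ly96 was below Tlr4 by a log2 difference of −0.71 ± 0.14, whereas Cd14 stayed above Tlr4 by 0.35 ± 0.26.

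Among the adaptors, Myd88 was above Ticam1 by 1.21 ± 0.17 per kilobase in 4 of 4 libraries, but by −0.09 ± 0.17 without the length correction. Tlr4 was below Myd88 by −1.27 ± 0.27 per kilobase in 4 of 4 libraries, and stood at 0.22 ± 0.27 without the correction. Both Myd88 comparisons include any reads of Acaa1a that were counted to it.

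The 6 receptors have coding sequences of more similar length, between 2352 and 3150 nt. Tlr3 was above Tlr4 by 0.52 ± 0.33 and Tlr7 below Tlr3 by −1.07 ± 0.41 per kilobase, each in 4 of 4 libraries. Tlr2 was below Tlr4 by −0.57 ± 0.44, in 4 of 4 libraries, with log2 differences of −0.04, −1.11, −0.58 and −0.54 in replicates 1 to 4. Tlr5 minus Tlr4 was −0.28 ± 0.19 and as small as −0.0025 in replicate 1, where a pseudocount of 0.1 CPM turned the order. Tlr7 and Tlr9 were not ordered the same way in all libraries, at −0.38 ± 0.35 for Tlr7 minus Tlr9. In total 8 of the 10 pairs set for comparison had the same direction in 4 of 4 libraries. The number was 7 with a pseudocount of 0.1 CPM and 6 without the length correction.

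**Figure D3:**
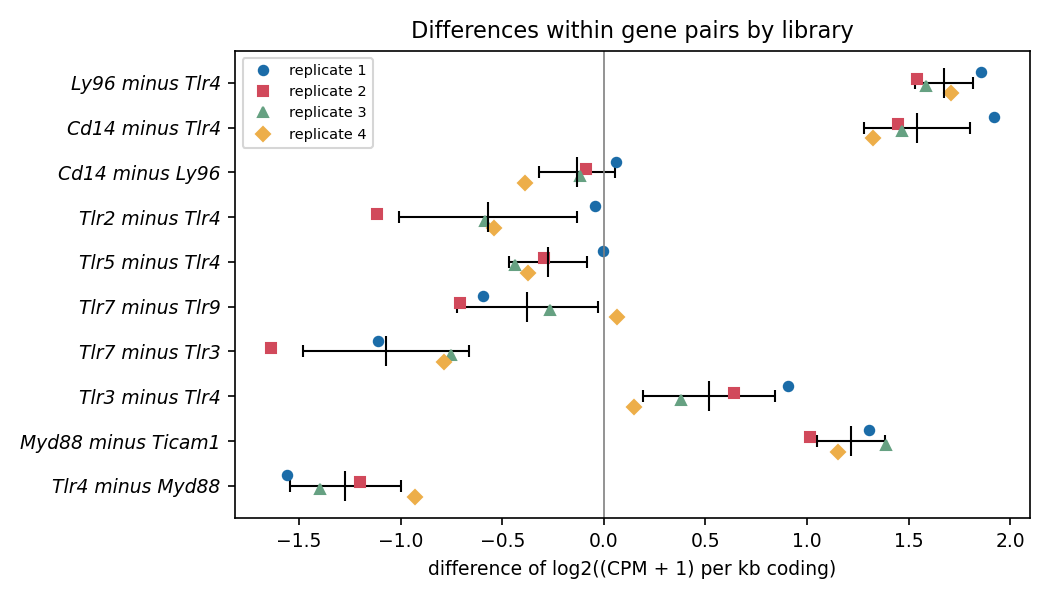
Difference of log2((CPM + 1) per kb) between the first and second gene of each pair (x axis) for 10 pairs (y axis), with replicates 1 to 4 as points, the mean as a tick and the SD as whiskers (n = 4). Ly96 and Cd14 lie to the right of Tlr4 in every library, at means of 1.67 and 1.54, while Cd14 minus Ly96 spans 0.

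How much the libraries differed was compared with what counting alone gives. The coefficient of variation over the 4 libraries was 7.20% for Ticam1, 7.64% for Tlr5, 10.8% for Tlr4 and 12.7% for Ly96. For these 4 genes it was below the variation expected from their read numbers alone, 12.4%, 12.7%, 12.0% and 15.8% in the same order. Tlr2, Tlr9 and Tlr7 varied most, by 30.6%, 25.3% and 23.2%, against 15.6%, 11.2% and 13.1% from counting. In a limma test across 15728 genes for more variance between libraries than genes of the same level have, none of the 10 genes passed, and none had an unadjusted p under 0.05. Of all genes 1.54% passed. Tlr2 had the smallest unadjusted p of the 10, with a library SD of 0.41 on the log2 scale against 0.26 for genes of its level (limma adjusted p = 0.99). The spread of Tlr2 and Tlr7 rests on replicate 2, without which the library SD was 0.16 for Tlr2 and 0.082 for Tlr7, against 0.41 and 0.32 with all 4 libraries.

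Toll-like receptors are known from macrophages and other immune cells, and nociceptors, the pain-sensing neurons, have also been reported to carry some of them. The 12 macrophage marker genes were all detected and summed to 822, 604, 752 and 757 CPM in replicates 1 to 4, led by Lyz2, Csf1r and Mrc1. The sum is uncertain, since Lyz2 was 60.5% unique, sharing words with Lyz1, and Itgam 3.97% unique. Replicate 2 was the low library for the macrophage sum as for Tlr2 and Tlr7. It was also lowest for the fibroblast, endothelial, satellite glia and lymphocyte sums, and highest for the pan-neuronal, nociceptor and dendritic cell sums. The dendritic cell sum rests mostly on Flt3, with 35.8 of 45.7 CPM in replicate 2. The satellite glia sum rests mostly on Apoe, with 6020 of 6795 CPM in replicate 2. Nefl made up 5856 of the 13639 pan-neuronal CPM in replicate 2 and was 38.8% unique, so that sum is uncertain. Nefl, Rbfox3, Elavl4 and Syt1 were highest in replicate 2, but Tubb3, Uchl1, Stmn2 and Snap25 were highest in replicate 3. Fibroblast genes summed to 15837, 9207, 11199 and 11787 CPM, and pan-neuronal genes to 11593, 13639, 13434 and 12275 CPM, in replicates 1 to 4. As a share of the macrophage sum, Tlr2 stood at 0.764%, 0.465%, 0.645% and 0.723%, lowest in replicate 2. The corresponding shares were 0.934%, 0.752%, 1.07% and 0.938% for Tlr7 and 0.849%, 1.29%, 1.11% and 1.19% for Tlr4. Tlr4 was lowest in replicate 1, where the macrophage sum was highest. The part of macrophages in any of these values was not tested.

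Markers of other cells had reads too. The 6 neutrophil genes, led by S100a9, S100a8 and Ltf, summed to 889 ± 35.3 CPM, with a range over the libraries of 867 to 941 CPM. Lymphocyte genes summed to 13.5 ± 3.70 CPM with 3 of 8 detected, and Cd3e, Cd3g and Cd8a each averaged under 1 CPM. Dendritic cell genes summed to 40.1 ± 4.42 CPM with 4 of 6 detected, and Clec9a and Xcr1 were among those not detected. All 8 nociceptor genes were detected at 4472 ± 304 CPM, all 6 endothelial genes at 342 ± 56.3 CPM and all 5 fibroblast genes at 12008 ± 2782 CPM. Satellite glia genes, 5 of 5 detected, summed to 7328 ± 577 CPM, and Schwann cell genes, 6 of 6 detected, to 16489 ± 3531 CPM. Which of these cells held the Toll-like receptor reads cannot be read from bulk libraries.

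The other 6 mouse Toll-like receptor genes had mean levels per kilobase below each of the 6 described above. Of these, 5 were detected, and all 5 were called below the median gene. Tlr8 was at 1.76 ± 0.367, Tlr13 at 1.70 ± 0.227, Tlr1 at 1.64 ± 0.151 and Tlr6 at 1.26 ± 0.312 CPM per kb (SD, n = 4). Tlr1 and Tlr6, which pair with TLR2 to bind lipoproteins, shared 612 coding words of 30 nt with each other and were 74.0% and 74.4% unique, so their levels are uncertain. Tlr11 was not detected, at 0.621 ± 0.226 CPM.

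Several genes for accessory and trafficking proteins of the receptors had many more reads per kilobase than the receptor genes. All 9 were detected, with 6 called above the median gene and 3 below. Hsp90b1, the chaperone that folds most Toll-like receptors, stood at 376 ± 19.1 CPM per kb, and Lbp, the lipopolysaccharide-binding protein that loads CD14, at 106 ± 4.66 CPM per kb (SD, n = 4). Lbp had 155.6, 142.7, 157.9 and 153.8 CPM in replicates 1 to 4 and was thus steady over the libraries. Ly86, a relative of Ly96 whose product pairs with CD180, was at 78.3 ± 10.6 CPM per kb, and Cd36, a scavenger receptor that works with TLR2, at 54.2 ± 21.3 CPM per kb. Cd36 differed most between libraries in this list, with 105 and 99.8 CPM in replicates 1 and 3 and 45.7 and 56.3 CPM in replicates 2 and 4.

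Downstream of MyD88, all 15 genes were detected, 3 were called above the median gene and 11 below, and the list median was −0.80 on the log2 scale. The highest were the ubiquitin-conjugating genes Ube2n and Ube2v1, at 55.5 ± 6.38 and 53.7 ± 4.24 CPM per kb. Their coding sequences were 0% and 19.8% unique, so these levels are uncertain. Ikbkg, the regulatory subunit of the IkappaB kinase, was at 22.4 ± 2.35 CPM per kb. Tab3, which binds ubiquitin chains for the kinase TAK1, was at 13.5 ± 2.18 CPM per kb and its difference from the median gene did not pass (−0.09 ± 0.23, limma adjusted p = 0.41). In the TRIF branch 7 of 8 genes were detected, 2 were called above and 4 below, and the list median was −0.95. The kinase gene Tbk1 was at 29.8 ± 2.25, the interferon regulatory factor gene Irf3 at 20.4 ± 1.05, Tank at 12.2 ± 2.55 and Ripk1 at 7.20 ± 1.20 CPM per kb. Ticam2, the adaptor that links TRIF to TLR4, was not detected, at 0.405 ± 0.160 CPM. All of its coding words were shared with Tmed7, so a missing count cannot be told apart from reads given to that gene.

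The NF-kappaB subunits and inhibitors were all detected, 8 of 8, with 3 above and 4 below the median gene and a list median of −0.25. Nfkbia, the inhibitor IkappaB-alpha, led with 44.4 ± 5.68 CPM per kb, before Rela at 33.1 ± 4.23, Nfkbib at 29.7 ± 3.78 and Nfkb1 at 17.4 ± 3.67 CPM per kb. Of 10 genes that restrain the pathway 7 were detected, 3 were called above and 7 below, and the list median was −1.51. Tollip, a protein that binds IRAK1, stood at 123 ± 9.91 CPM per kb, well above the phosphatase gene Dusp1 at 24.3 ± 4.18. Sarm1, a TIR-domain protein that drives axon degeneration, was at 19.5 ± 0.622, and the deubiquitinase gene Cyld at 6.51 ± 1.32 CPM per kb. Sigirr, Socs1 and Zc3h12a did not reach 1 CPM in every library.

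Most genes of proteins reported as endogenous ligands of TLR2 or TLR4 stood above the median gene. All 10 were detected, 7 were called above and 3 below, and the list median was 2.13 on the log2 scale. Over all genes tested 45.9% were called above and 46.2% below, and 62.5% of all protein-coding genes were detected. S100a9 and S100a8, the calprotectin subunits of neutrophils, stood at 935 ± 74.2 and 735 ± 49.0 CPM per kb, the matrix proteoglycan gene Bgn at 418 ± 23.6 and the fibronectin gene Fn1 at 205 ± 18.9 CPM per kb (SD, n = 4). Hmgb1, Hspa1a, Hspa1b and Hspd1 had coding sequences that were 1.46%, 6.97%, 11.4% and 20% unique, and their levels are uncertain. Hmgb1 and Hspd1 are among the 7 called above, and Hspa1a and Hspa1b among the 3 below. Of 12 inflammatory target genes 10 were not detected: Tnf, Il1b, Il6, Il12b, Ccl5, Cxcl1, Cxcl2, Ptgs2, Nos2 and Ifnb1. The detection rule, passed by 62.5% of all protein-coding genes, is in CPM and takes no account of length. Coding sequences of these 10 genes run from 273 nt for Ccl5 to 3432 nt for Nos2. Cxcl2 and Ifnb1 had no read. At this depth a count of 0 gives an upper limit of about 3 reads at 95% confidence. That was 0.523 CPM in replicate 1, the shallowest library, and 0.205 CPM in replicate 3, the deepest. The detected chemokine genes Ccl2, at 13.5 ± 1.93 CPM per kb, and Cxcl10, at 11.8 ± 3.50 CPM per kb, were not separated from the median gene, with log2 differences of 0.09 ± 0.23 and 0.02 ± 0.30 (limma adjusted p = 0.40 and 0.88). Ccl5 was at 1.58 ± 0.794 and Il1b at 0.779 ± 0.145 CPM per kb. The detected Tlr6, at 1.26 ± 0.312 CPM per kb, stood between these means.

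**Figure D4:**
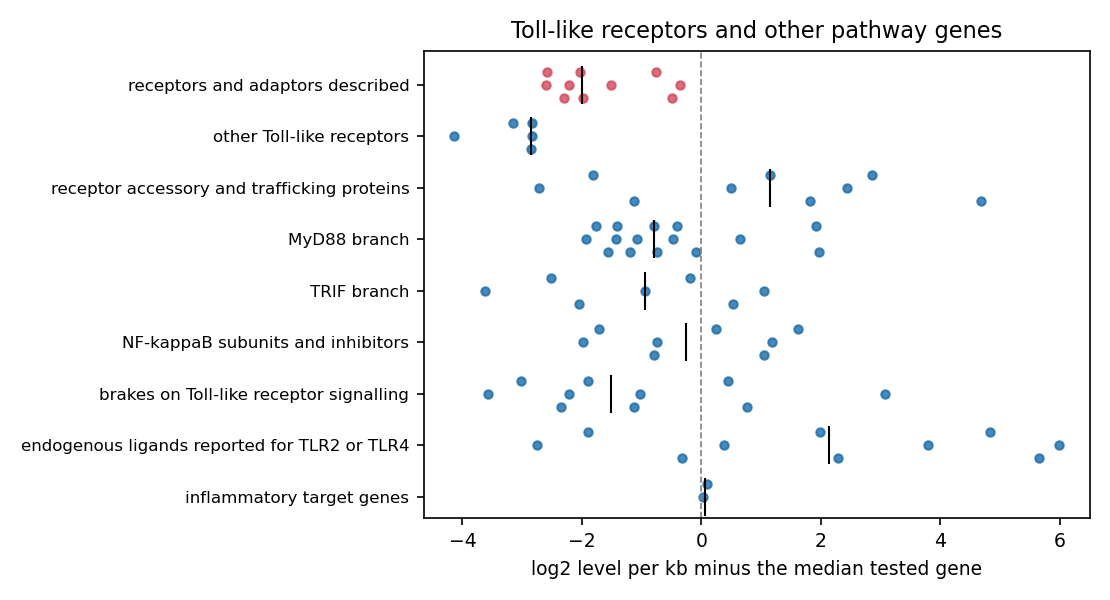
Log2 level per kilobase minus that of the median tested gene (x axis, mean over 4 libraries), 1 point per gene with a mean of at least 1 CPM, for the 10 genes (red) and 8 other pathway lists (blue, y axis). Black ticks are list medians. The 10 genes have a median of −2.005, the other Toll-like receptors −2.86, and the reported ligands 2.13. The reported ligands include Hmgb1, Hspa1a, Hspa1b and Hspd1, whose levels are uncertain.

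Genes whose levels were most like those of Tlr4 and Cd14 were found among 14103 protein-coding genes by the root mean square difference of log2((CPM + 1) per kb) over the 4 libraries. For Tlr4 they were Tpcn2, Ofd1 and Gm14403, at 0.042, 0.044 and 0.070. For Cd14 they were A430005L14Rik, Arhgap42 and Plekho2, at 0.029, 0.040 and 0.042. This likeness over 4 libraries was given no test.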

How the data were processed

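Per the submitters' processing notes, the authors' tools were TopHat2 2.1.1, FastQC 0.11.5, Cufflinks 2.2.1 and Bowtie2 2.2.9, and the builds GRCm38.p4 and mm10. What each tool did, how reads were counted and on which annotation is not stated there. The name of the deposited table says TPM. Its columns each sum to 1000000, and 96.5% to 96.7% of the non-zero values are, to within 0.05, whole multiples of a step that does not depend on gene length. The values were therefore used as deposited CPM, with no length correction, and 1000000 over the step gave the assigned reads. A test on reads was not run, because the remaining values were not whole.

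Coding lengths (22243 genes), positions and words came from GENCODE M21 on GRCm38, to which 48052 of 48431 genes matched. Levels were log2((CPM + 1) per kb) minus the library median, tested against 0 with limma 3.58.1 on genes averaging 1 CPM or more. Variance between libraries was tested with limma's trended robust prior and an F test. Both used Benjamini-Hochberg adjustment over all genes at 0.05, and were tested on simulated data. Pairs used exact sign-flip permutation over the 4 libraries. R 4.3.3 and Python 3.11.15 were used.

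The 10 genes, the lists and the tests were chosen with earlier results of these data known. Named were the 10 genes, 10 pairs, the 4 highest per kb and all undetected genes of each pathway list, and leading marker genes. Intervals and floors (3 reads) cover counting error only.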

Additional observations from a re-analysis of the deposited data

How the results depend on the processing

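All 10 genes were still detected at 0.5 CPM, with new totals that leave out the mitochondrial genes and the 20 highest others, and with each library left out in turn. All 10 were called below the median gene, and none passed the variance test, under a pseudocount of 0.1 CPM, the new totals, quantile normalisation and each left-out library. Without the length correction, run for the level test and the pairs, all 10 were also called below, and with a prior that was not robust, run for the variance test alone, none passed. Without the filter on low values none passed the variance test and 7 were called below. Without the filter the difference from the median gene turned to 0.43 for Ly96, 0.30 for Cd14 and 0.031 for Myd88, because genes with few reads lowered the median. Ly96 and Cd14 were then called above the median gene, and Myd88 did not pass (limma adjusted p = 0.71). Without the length correction, Ly96 minus Tlr4 turned to −0.71, Myd88 minus Ticam1 to −0.092 and Tlr4 minus Myd88 to 0.22. With a pseudocount of 0.1 CPM, Cd14 minus Ly96 was 0.01. Over all genes, the count passing the variance test was 242, against 12 with the prior that was not robust, 757 without the filter and 106 to 205 with 1 library left out. A quasi-likelihood test on recovered reads was planned but not run. No paired analysis was possible because there was 1 group of libraries. With 26 to 178 reads a gene and library, differences of the size of the counting error were not detectable at this depth.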
